A study of Mus musculus with 39 samples.

Results

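Levels of 10 genes of the pluripotency network were followed in mouse epiblasts and in epiblast stem cell (EpiSC) lines with and without *Stat3*. They were the core transcription factor genes *Pou5f1* (OCT4), *Nanog*, *Sox2* and *Sall4*, the genes of the post-implantation epiblast *Otx2*, *Pou3f1* (OCT6), *Utf1* and *L1td1*, and the RNA-binding protein genes *Lin28a* and *Lin28b*. The genes were taken by symbol from the count tables of epiblasts and of EpiSC lines, in which they make up 10 of 47643 genes, and all 10 passed the filter on low counts in every comparison. Each epiblast library came from 1 embryo of a mating between CD1 mice heterozygous for a *Stat3* null allele, in which a neomycin resistance cassette replaces coding exons. Mothers of null and wild type (WT) embryos alike were therefore heterozygous, and the embryos were genotyped on extraembryonic tissue. Epiblasts were freed by hand of visceral endoderm and extraembryonic ectoderm at E5.5 (4 null, 2 WT), at E6.5 (8 null, 9 WT) and at E7.5 (3 null, 9 WT), where E counts days of embryonic development. The EpiSC lines, 2 null and 2 WT with 1 library each, were derived from epiblasts at E6.5 or E7.5 and grown with FGF2, activin A and a tankyrase inhibitor. The study itself examined primed pluripotency genes in these epiblasts, so the choice of genes is not independent of the data.

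OCT4, SOX2 and NANOG are the transcription factors around which the pluripotent state is organised, and OCT4 and SOX2 bind many of their targets side by side. After implantation the epiblast keeps *Pou5f1* and *Sox2* and takes on a primed state marked by *Otx2* and *Pou3f1*. As gastrulation proceeds, the primitive streak, mesoderm and neural ectoderm arise from it and the network is dismantled. LIN28A and LIN28B hold back maturation of the let-7 family of microRNAs and are abundant in early embryonic cells.

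Levels below are in CPM, the usual depth-scaled count, on library sizes scaled by the TMM method. Epiblast libraries held 22941210 to 79013960 counts and EpiSC libraries 63445877 to 127583699, so that 3 counts corresponded to 0.0380 to 0.131 CPM in epiblasts. *Stat3* itself, measured over all its exons, stood at 9.47 to 22.6 CPM in E5.5 null epiblasts and 38.6 to 51.1 in WT, at 1.42 to 7.99 and 5.62 to 28.6 at E6.5, at 1.24 to 1.5 and 4.69 to 24.7 at E7.5, and at 3.15 to 3.5 and 18.2 to 22.8 in EpiSC lines. The null and WT ranges of *Stat3* overlapped only at E6.5. Some libraries stood apart from their labels. The library labelled E5.5 null 1 had 0.673 CPM of *Pou5f1*, which defines the epiblast, against 100 to 288 in the other E5.5 libraries, no count of *Nanog* or *Otx2*, and the highest sum of 8 extraembryonic ectoderm markers (1107 CPM against 32.1 to 381 in the other E5.5 libraries). E6.5 null 1 had the next highest sum, 763 CPM against at most 39.8 in the other E6.5 libraries. E7.5 WT 3 stood apart from the other 8 E7.5 WT epiblasts in 7 of the 10 genes, as described below. Values without these libraries are given beside the results of the 10 genes that move with them. Results for markers of other tissues include every library.

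Set side by side per kilobase of exon, the genes of the E6.5 WT epiblast fell into 3 tiers. *Pou5f1* led with a mean of 269 CPM per kb ± 35.5 (SD, n = 9), and *L1td1* (208 ± 51.1), *Utf1* (205 ± 38.9), *Lin28a* (161 ± 18.3) and *Sall4* (114 ± 9.04) followed, each overlapping the next in that order. *Pou3f1* (47.7 ± 10.2) and *Otx2* (42.5 ± 3.58) formed the middle tier, below every *Sall4* value. *Sox2* (23.8 ± 4.08), *Nanog* (15.7 ± 6.82) and *Lin28b* (14.2 ± 2.72) were the lowest. *Nanog* overlapped both of the others, all *Lin28b* values (up to 16.7) lay below those of *Sox2* (from 18.4), and none of the 3 genes reached *Otx2*. In E7.5 WT epiblasts *Lin28a* had the highest mean (209 ± 25.4) and *Nanog* the lowest (6.92 ± 3.52).

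**Figure D1:**
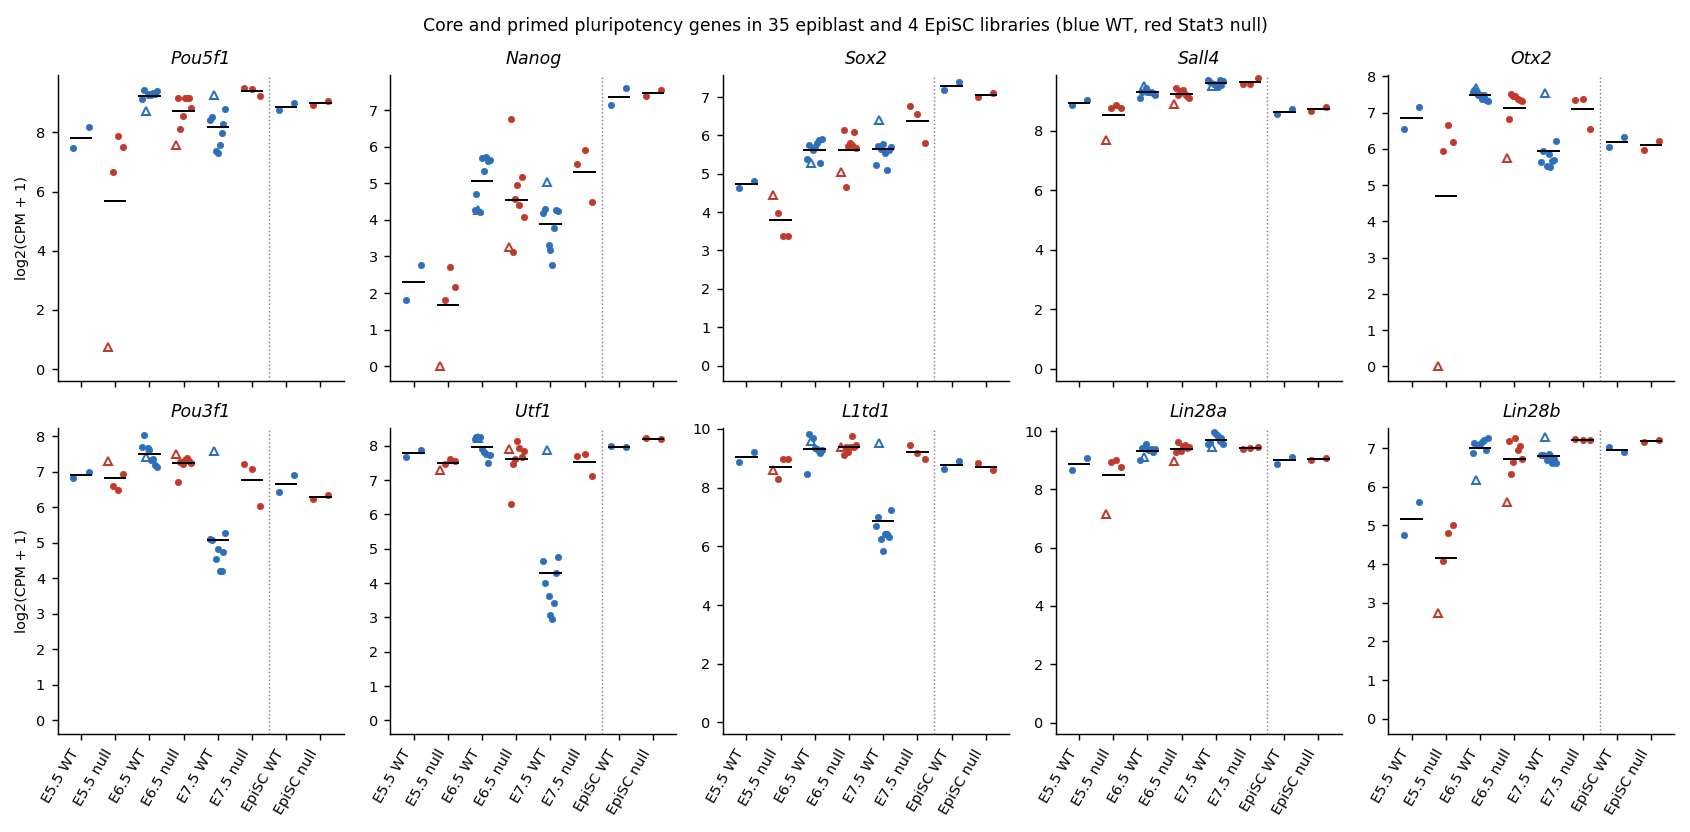
Level of each of the 10 genes as log2(CPM + 1) in every epiblast and, right of the dotted line, EpiSC library, 1 panel per gene, with groups along the horizontal axis, WT in blue, *Stat3* null in red, black bars at the mean of the plotted values and open triangles for the 4 libraries that stand apart from their group. *Otx2*, *Pou3f1*, *Utf1* and *L1td1* are low in all E7.5 WT epiblasts but the triangle of WT 3, while the 3 E7.5 null epiblasts lie above those 8 in each of these genes.

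**Figure D2:**
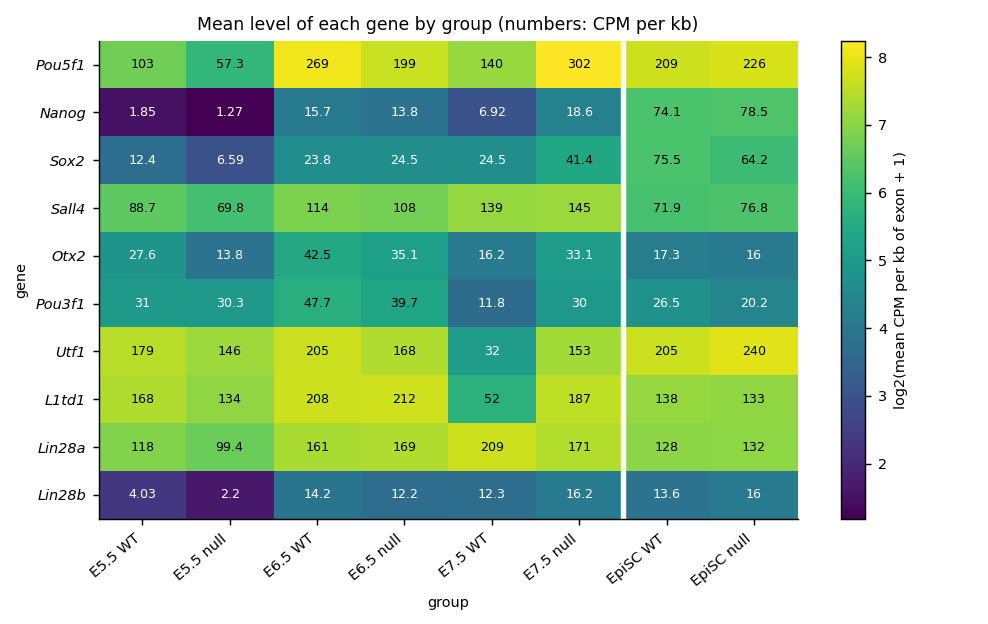
Mean CPM per kb of exon in each group, printed in each cell and coloured as log2(mean + 1), with genes as rows and groups as columns and a white line before the EpiSC groups, which were normalised separately. *Nanog* goes from 1.85 at E5.5 to 15.7 at E6.5 and 6.92 at E7.5 in WT epiblasts and is at 74.1 in WT EpiSC lines, while *Lin28a* goes from 118 through 161 to 209.

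*Pou5f1* encodes OCT4, without which no pluripotent epiblast forms. It measured 176 and 288 CPM in the 2 E5.5 WT epiblasts, 419 to 686 CPM (median 623) in the 9 at E6.5, and 156 to 608 CPM (median 311) in the 9 at E7.5. All E6.5 epiblasts lay above both E5.5 ones, and the E7.5 range reached from below E5.5 into the E6.5 range through WT 3 (608 CPM) and WT 9 (440 CPM). From E5.5 to E6.5 *Pou5f1* rose by 1.40 on the log2 scale (SE 0.20, adjusted p = 0.00154; edgeR quasi-likelihood test with Benjamini-Hochberg adjustment over all genes, as for every adjusted p below). A gene was called when its log2 fold change was beyond 1 in either direction and its adjusted p was under 0.05. From E6.5 to E7.5 the difference was -0.96 (SE 0.22, adjusted p = 0.00371), just short of the fold required for a call, and -1.14 without WT 3, which passed. In RNA from a whole epiblast, fewer cells that express a gene cannot be told apart from less RNA per cell.

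*Nanog*, the homeobox gene that stabilises pluripotency, was the least abundant member at E5.5, with 2.53 and 5.76 CPM in the WT epiblasts. At E6.5 it spanned 17.6 to 51.4 CPM (median 39) and at E7.5 5.77 to 32.0 CPM (median 17.3). It rose by 3.11 from E5.5 to E6.5 (SE 0.62, adjusted p = 0.00977), a fold of 8.63 and the largest increase among the 10 genes, and then fell by 1.21 (SE 0.32, adjusted p = 0.00817). Within E6.5, WT 1 to 4 had 17.6 to 24.9 CPM of *Nanog* with 100 to 170 CPM summed over 10 primitive streak and mesoderm markers, and WT 5 to 9 had 39 to 51.4 CPM with 367 to 637 CPM of those markers. WT 1 to 3 were also sequenced deeper, to over 40000000 counts. The 250 bases upstream of *Nanog* are shown because, among the windows searched at the 8 members with one, only those of *Nanog* hold both an octamer-type motif (TTTGCAT) and a SOX motif (CATTGT, here read on the other strand as ACAATG), both in capitals. The window runs up to the base before the gene start, chr6:122707239-122707488 on the plus strand of GRCm38.p6, from RefSeq:
Nanog upstream: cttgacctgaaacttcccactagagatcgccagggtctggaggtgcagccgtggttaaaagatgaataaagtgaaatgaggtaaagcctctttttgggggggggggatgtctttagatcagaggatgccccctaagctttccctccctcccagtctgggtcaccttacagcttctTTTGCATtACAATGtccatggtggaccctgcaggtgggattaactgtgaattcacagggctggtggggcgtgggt
Of 32851 RefSeq promoter windows in the mouse genome, each from 250 bases before to 50 bases after a gene start, 4.63% hold the octamer motif on either strand, 12.6% the SOX motif, and 0.0183% both with at most 3 bases between them. Those are 6 windows, and 2 of the 6 are overlapping windows of alternative *Nanog* starts that hold the same motif pair at the same bases. A match of letters is a description of the sequence and not evidence of binding.

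*Sox2*, which encodes the HMG-box partner of OCT4, measured 23.9 and 27.2 CPM in the E5.5 WT epiblasts, 37.8 to 59.1 CPM (median 50.7) at E6.5 and 33.5 to 83.3 CPM (median 48.9) at E7.5. The E6.5 values lay above both E5.5 values, while E6.5 and E7.5 shared most of their range. The log2 difference from E5.5 to E6.5 was 0.96 (SE 0.21, adjusted p = 0.0125), under the fold required for a call, and from E6.5 to E7.5 it was 0.02 (SE 0.14, adjusted p = 0.926). The latter was the smallest difference of the 10 genes over that step. A RefSeq window of *Sox2*, shown as the other member window with an octamer-type match, holds that motif on the opposite strand. The window belongs to a RefSeq start that lies upstream of the annotated start of the gene at chr3:34650405, so the stretch does not reach that start (ATGCAAA in capitals, chr3:34649745-34649994, plus strand, GRCm38.p6):
Sox2 upstream: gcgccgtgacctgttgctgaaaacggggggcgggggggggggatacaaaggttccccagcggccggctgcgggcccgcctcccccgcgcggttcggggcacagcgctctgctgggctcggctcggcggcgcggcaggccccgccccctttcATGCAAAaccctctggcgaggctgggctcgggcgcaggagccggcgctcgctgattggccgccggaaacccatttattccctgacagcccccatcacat

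*Sall4*, a zinc finger gene of the same network, varied less than the other core genes. Its levels were 462 and 520 CPM in the E5.5 WT epiblasts, 554 to 720 CPM (median 630) at E6.5 and 707 to 838 CPM (median 754) at E7.5, a climb with little overlap between stages. The log2 difference from E5.5 to E6.5 was 0.38 (SE 0.098, adjusted p = 0.0252) and from E6.5 to E7.5 0.27 (SE 0.050, adjusted p = 0.000573), both small against the fold required for a call. *Sall4* was thus at its highest at the stage at which *Pou5f1* and *Nanog* were lower than at E6.5.

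The 4 genes of the primed epiblast shared a course of high levels up to E6.5 and low levels at E7.5. *Otx2*, a homeobox gene of the post-implantation epiblast and later of the anterior neural plate, measured 92.1 and 141 CPM at E5.5, 159 to 203 CPM (median 179) at E6.5 and 44.1 to 186 CPM (median 51.2) at E7.5. *Pou3f1*, whose product OCT6 marks the same stage, measured 112 and 126, 140 to 264 (median 169), and 17.4 to 193 CPM (median 27.5). *Utf1*, which encodes a chromatin-associated protein of pluripotent cells, measured 204 and 234, 180 to 305 (median 241), and 6.69 to 235 CPM (median 14.9). *L1td1*, a gene derived from the LINE-1 transposon, measured 470 and 598, 349 to 911 (median 633), and 56.7 to 727 CPM (median 84.9). In each of the 4 genes the highest E7.5 value was that of WT 3, within the E6.5 WT range, and the other 8 epiblasts lay below every E6.5 WT epiblast, at up to 73.8, 37.9, 25.9 and 150 CPM respectively.

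From E6.5 to E7.5, 5 of the 10 genes fell in WT epiblasts, where 3.09% of all 17191 genes tested were called lower. Besides *Nanog* these were *Utf1* (-2.69, SE 0.66, adjusted p = 0.00643), *Pou3f1* (-2.04, SE 0.43, adjusted p = 0.00222), *L1td1* (-2.01, SE 0.46, adjusted p = 0.00392) and *Otx2* (-1.41, SE 0.24, adjusted p = 0.000313). Without WT 3 the 4 log2 differences were -4.10, -2.79, -2.81 and -1.76, and *Pou5f1* joined the genes called lower, against 10.9% of all genes called in either direction. With both WT 3 libraries left out, that of E6.5 being the WT epiblast of its stage with the most visceral endoderm RNA, the same 6 members passed, against 12.5% of all genes called in either direction. From E5.5 to E6.5 none of the 4 was called: the log2 differences were 0.64 for *Otx2* (SE 0.14, adjusted p = 0.0130), 0.64 for *Pou3f1* (SE 0.19, adjusted p = 0.0544), 0.22 for *Utf1* and 0.32 for *L1td1*. Over that step 3 members were called higher, *Nanog*, *Lin28b* and *Pou5f1*, against 2.52% of the 20763 genes tested. All 10 log2 differences were positive, with a median of 0.64 against 0.10 over all genes, and 7 members had E6.5 values that did not overlap those of E5.5, against 8.36% of all genes in that direction. Only 2 epiblasts stood for E5.5 WT, and without WT 1 of that stage 1 member was called, against 0.45% of all genes called in either direction, and with all 35 epiblasts in 1 fit 1 was called, against 3.68%.

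Markers of other tissues differed over these steps too. The sum of 10 visceral endoderm markers was 5360 and 6655 CPM in the E5.5 WT epiblasts, 48.1 to 5501 CPM (median 160) at E6.5 and 388 to 4209 CPM at E7.5. The sum of 8 extraembryonic ectoderm markers was 32.1 and 322, 5.04 to 18.5 and 5.54 to 106 CPM, and of 10 primitive streak and mesoderm markers 368 and 604, 100 to 637 and 227 to 587 CPM. These 2 sums rested on different markers at different stages. At E7.5 the ectoderm sum was mostly *Cdx2* (median 63.7 CPM), with *Elf5* at 0 in 7 of 9 epiblasts. At E5.5 the streak and mesoderm sum was mostly *Eomes* (311 and 426 CPM), with *T* at up to 0.449 and *Mesp1*, *Msgn1* and *Kdr* at 0. At E7.5 *Eomes* had a median of 12.5 CPM and *T* of 180. At E7.5 the lowest sum of each of these 3 lists among WT epiblasts was that of WT 3. Their part in the differences between stages was not tested.

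*Lin28a* and *Lin28b*, paralogs that both bind let-7 precursors, took different courses. *Lin28a* measured 404 and 541 CPM in E5.5 WT epiblasts, 514 to 756 CPM (median 668) at E6.5 and 704 to 1002 CPM (median 810) at E7.5. *Lin28b* measured 25.8 and 47.2, 70.9 to 152 (median 138), and 96.3 to 156 CPM (median 110). *Lin28a* thus stood higher at each later stage, while *Lin28b* was at its highest at E6.5. *Lin28b* rose from E5.5 to E6.5 by 1.84 on the log2 scale (SE 0.29, adjusted p = 0.00285) and then differed by -0.23 (SE 0.12, adjusted p = 0.173). For *Lin28a* the differences were 0.47 (SE 0.14, adjusted p = 0.0590) and 0.36 (SE 0.077, adjusted p = 0.00148), under the fold for a call. Per kilobase of exon, *Lin28a* exceeded *Lin28b* by a median ratio of 30.7 in E5.5 WT epiblasts, 10.9 at E6.5 and 18.6 at E7.5. The ratio was lowest where *Lin28b* was highest, and in EpiSC lines it was 9.50 in WT and 8.26 in null.

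The let-7 microRNAs that LIN28 proteins hold back recognise their targets by bases 2 to 8, the seed, in capitals in let-7a-5p (chr13:48538239-48538260, minus strand, GRCm38.p6, RefSeq), a seed shared by 10 of the 11 let-7 mature forms listed:
mmu-let-7a-5p: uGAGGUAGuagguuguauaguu
The complement of this seed (CTACCTC) occurs in the 3′ untranslated regions (UTRs) of both *Lin28* genes. Of 19189 mouse 3′ UTRs searched, from the first coding transcript of each gene in GENCODE vM21, 7.5% hold it. *Lin28b* holds it at 4 positions, *Lin28a* at 2 and *Sall4* at 1, while *Pou5f1*, *Nanog*, *Sox2*, *Otx2*, *Pou3f1* and *Utf1* hold none and *L1td1* was not searched. The sites follow with 15 bases before and 1 base after the match, which is in capitals, on the minus strand of chr10 for *Lin28b*, chr4 for *Lin28a* and chr2 for *Sall4*, from the first to the last along each transcript:
Lin28b site 1, chr10:45381022-45381044: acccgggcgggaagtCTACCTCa
Lin28b site 2, chr10:45378648-45378670: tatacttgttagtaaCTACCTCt
Lin28b site 3, chr10:45378476-45378498: gtttacagcacatggCTACCTCc
Lin28b site 4, chr10:45377060-45377082: aaatgatggcaccgaCTACCTCt
Lin28a site 1, chr4:134005189-134005211: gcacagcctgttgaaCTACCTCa
Lin28a site 2, chr4:134004551-134004573: gagatcgccacaaacCTACCTCa
Sall4 site 1, chr2:168748940-168748962: agggctttaatttatCTACCTCa
Mature let-7 was not measured, since the tables count genes.

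At E5.5 no member was called between null and WT epiblasts with edgeR, and neither was any other gene (0% of 18690, with 467 genes or 2.5% at an unadjusted p under 0.05, *Sox2* among them). DESeq2 and limma-voom with sample weights called no member either. *Stat3* itself was not called with edgeR (-1.41, SE 0.36, adjusted p = 0.999), so the lack of a call does not show equal levels. The 10 log2 differences of the members were all negative, with a median of -0.45 against -0.01 over all genes. *Sox2* measured 20.7, 14.6, 9.41 and 9.44 CPM in the 4 null epiblasts, all below the 2 WT values of 23.9 and 27.2, a log2 difference of -0.92 (SE 0.38, adjusted p = 0.999). *Utf1* was also lower in every null epiblast, by 0.30 on the log2 scale, where 7.11% of all genes had null values wholly below WT. The library labelled E5.5 null 1 weighed on the rest: without it the log2 difference moved from -0.85 to -0.44 for *Pou5f1*, from -1.01 to -0.59 for *Otx2*, from -0.54 to -0.13 for *Nanog* and from -0.26 to 0.02 for *Lin28a*, and that of *Sox2* to -1.20. All 8 extraembryonic ectoderm markers were higher in null, none called, with a median log2 difference of 1.48 and sums of 76.9 to 1107 CPM against 32.1 and 322 in WT. The 1107 CPM was that of null 1, and null 2 to 4 had 76.9 to 381 CPM. The visceral endoderm sum was 9407, 11114 and 6743 CPM in null 2 to 4, above the WT sums of 5360 and 6655, and 27.7 in null 1. Of the 10 visceral endoderm markers 6 were higher in null and 4 lower, none called (median 0.065 with null 1 included). The part of these 2 tissues in the members' differences was not tested.

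At E6.5 the groups of 8 null and 9 WT epiblasts overlapped in all 10 genes, where 0.00585% of all genes had null values wholly above WT and 0.0585% wholly below, and none was called with edgeR, DESeq2 or limma-voom. With edgeR no gene of the 17095 tested was called (0%), and 1414 (8.27%), 2 members among them, had an unadjusted p under 0.05. *Stat3* itself was among the genes not called (-1.60, SE 0.39, adjusted p = 0.334), so the lack of a call does not show equal levels. Of the members *Pou5f1* had the lowest p, at 188 to 575 CPM (median 508) in null against 419 to 686 (median 623) in WT epiblasts, a log2 difference of -0.43 (SE 0.18, adjusted p = 0.523). *Pou3f1*, at 104 to 182 CPM (median 155) against 140 to 264 (median 169), differed by -0.25 (SE 0.12, adjusted p = 0.593). The other 8 lay between -0.28 for *Utf1* and 0.09 for *Lin28a*. Without E6.5 null 1, which had the lowest *Pou5f1* (188 CPM, the next being 277), the log2 difference of *Pou5f1* moved to -0.32, that of *Otx2* from -0.26 to -0.14 and that of *Lin28b* from -0.22 to -0.11. In libraries over 40000000 counts (3 null, 3 WT) *Utf1*, *Otx2* and *Pou5f1* differed by -0.86, -0.76 and -0.68, and *Nanog* by 1.01. In the shallower ones the first 3 differed by 0.014, -0.023 and -0.31. None of these was called. *Nanog* was the most uneven gene among null epiblasts, at 7.62 CPM in null 3 and 108 CPM in null 2, which lay above every other epiblast of the data set. Its log2 difference was -0.18 over all libraries and -0.82 without null 2. Markers of other tissues moved with genotype here too, none of them called. All 10 visceral endoderm markers were higher in null (median log2 difference 1.23), at sums of 118 to 6485 CPM against 48.1 to 5501 in WT. The 6 extraembryonic ectoderm markers tested were also higher (median 3.34), at sums of 6.89 to 763 against 5.04 to 18.5 CPM. The 763 CPM was that of null 1, and the other null epiblasts had at most 39.8. Of 6 primitive streak and mesoderm markers 4 were lower (median -0.80), at sums of 121 to 568.2 against 100 to 637 CPM. In that list *Hand1* reached 221 CPM in null against 10.7 in WT, and null 1 had a sum of 547 CPM. The part of these tissues in the members' differences was not tested.

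At E7.5, 9 of the 10 log2 differences between the 3 null and 9 WT epiblasts were positive, that of *Lin28a* being negative, and no member was called with edgeR and all libraries included, against 1.17% of the 19680 genes tested. An unadjusted p under 0.05 was seen in 8 members and in 19.7% of all genes, and DESeq2 called 3 members (3.46% of all genes) and limma-voom with sample weights 6 (6.05%). *Pou5f1* measured 732, 708 and 595 CPM in null epiblasts, and only WT 3, at 608 CPM, of the 9 WT epiblasts reached them. *Nanog* measured 45.0, 58.9 and 21.5 CPM, above every WT epiblast but WT 3 (32.0 CPM), and *Sox2* 108, 93.0 and 55.0 CPM, with WT 3 (83.3 CPM) between them. The log2 differences were 1.13 for *Pou5f1* (SE 0.37, adjusted p = 0.121), 1.45 for *Nanog* (SE 0.42, adjusted p = 0.0796) and 0.78 for *Sox2* (SE 0.23, adjusted p = 0.0835). *Sall4* measured 767, 762 and 880 CPM, inside the WT range but for the last value, and differed by 0.08 (SE 0.064, adjusted p = 0.546).

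The primed genes showed the same split of the WT group. *Otx2* measured 161, 165 and 93.0 CPM in the E7.5 null epiblasts, *Pou3f1* 147, 134 and 64.4 CPM, *Utf1* 209, 217 and 137 CPM and *L1td1* 698, 583 and 504 CPM. All these values lay above the other 8 WT epiblasts and below WT 3 in each of the 4 genes. The log2 differences were 1.05 for *Otx2* (SE 0.42, adjusted p = 0.193), 1.37 for *Pou3f1* (SE 0.71, adjusted p = 0.332), 2.27 for *Utf1* (SE 1.02, adjusted p = 0.252) and 1.87 for *L1td1* (SE 0.72, adjusted p = 0.181).

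The *Lin28* genes differed in direction at E7.5. *Lin28a* measured 667, 684 and 700 CPM in null epiblasts, all below the lowest WT value of 704 CPM (WT 3), a log2 difference of -0.26 (SE 0.092, adjusted p = 0.121), and 2.11% of all genes had null values wholly below WT. *Lin28b* measured 149, 147 and 146 CPM, above every WT epiblast but WT 3 (156 CPM), a difference of 0.42 (SE 0.12, adjusted p = 0.0642). In the null epiblasts both genes therefore lay nearer to E6.5 WT values than to those of the other 8 E7.5 WT epiblasts.

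With WT 3 left out of E7.5, as was done for each library in turn, 6 members were called higher in null epiblasts, against 5.68% of 19462 genes called in either direction. These were *Utf1* (3.69, adjusted p = 0.000210), *L1td1* (2.67, adjusted p = 8.43e-05), *Pou3f1* (2.13, adjusted p = 0.000270), *Nanog* (1.67, adjusted p = 0.00678), *Otx2* (1.41, adjusted p = 0.000111) and *Pou5f1* (1.31, adjusted p = 0.0202). *Sox2* (0.91, adjusted p = 0.00252), *Lin28b* (0.50, adjusted p = 0.000163) and *Lin28a* (-0.29, adjusted p = 0.0245) passed the p-value but not the fold. Null and WT values then did not overlap in 8 members that were higher in null, against 6.7% of all genes, nor in *Lin28a*, which was lower, against 7.03%. Thus 9 of the 10 members separated the 3 null epiblasts from those 8 WT epiblasts, and *Sall4* did not. WT 3 was singled out by its values of these same genes. The calls and separations without it, here and in the other comparisons, are therefore descriptions of how the results depend on it and not independent support.

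**Figure D3:**
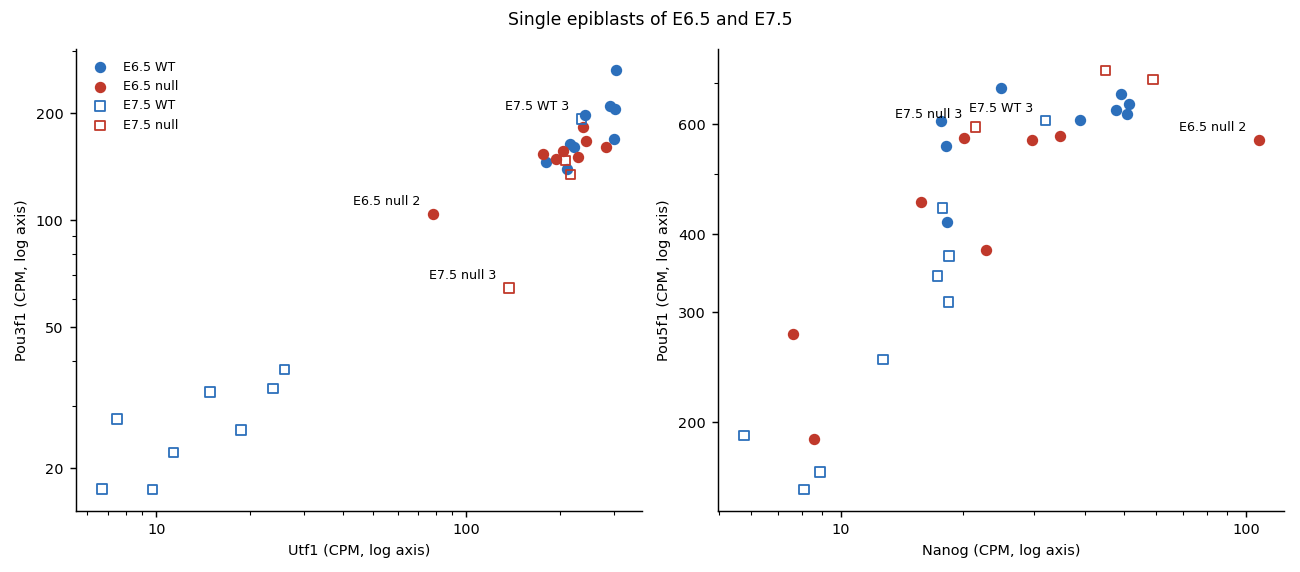
Each E6.5 (filled circles) and E7.5 (open squares) epiblast, WT in blue and null in red, by its CPM of *Utf1* and *Pou3f1* (left) and of *Nanog* and *Pou5f1* (right), all axes logarithmic. In the left panel 8 E7.5 WT epiblasts form a separate low cloud at up to 25.9 CPM of *Utf1*, and WT 3 and the E7.5 null epiblasts lie at 137 CPM or more.

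Placed gene by gene, E7.5 WT 3 lay within the range of the 9 E6.5 WT epiblasts in 7 of the 10 genes and within that of the other 8 E7.5 WT epiblasts in 1. E7.5 null 1 lay within the 2 ranges in 7 and 1 genes, null 2 in 5 and 1, and null 3 in 6 and 0. The mean of E6.5 WT was the nearer of the 2 stage means in 9 genes for WT 3, null 1 and null 2, and in 7 for null 3. These counts are descriptions, with no test, since WT 3 was singled out after its values were seen.

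Markers of other tissues moved with genotype at E7.5 as well. All 10 visceral endoderm markers were lower in null, with *Sox17* (-1.89) and *Afp* (-3.67) called, and their sum was 42.5 to 256 CPM in null against 388 to 4209 CPM in WT epiblasts, WT 3 being the lowest. Among the 10 markers only *Hnf4a* was at 0, in 1 null epiblast. *Sox17* did not follow the sum across WT stages. It was at up to 4.52 CPM at E6.5, where the sum reached 5501 CPM, and at a median of 27.3 CPM at E7.5. Whether its call stands for visceral endoderm was not tested. The extraembryonic ectoderm sum was 4.71 to 17.7 CPM in null, 5.54 in WT 3 and 34.6 to 106 in the other WT epiblasts, mostly from *Cdx2* (WT median 63.7 CPM). In that list *Elf5* was at 0 in 7 of 9 WT and 2 of 3 null epiblasts, so the difference in the sum is mostly that of 1 marker. Primitive streak and mesoderm sums overlapped, at 446 to 797 CPM in null and 227 to 587 in WT, with 4 of the 10 markers higher in null and 6 lower. The 1 called, *Msgn1*, a gene of the presomitic mesoderm, was lower, at 0 in all 3 null epiblasts and in 1 WT epiblast, with a WT median of 18.1 CPM. *Eomes* (340 to 420 CPM in null against 2.80 to 207 in WT) and *Mixl1* (29.2 to 52.9 against 0 to 27.3 CPM), both of the primitive streak, were higher in null without being called. The part of these tissues in the members' differences was not tested.

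**Figure D4:**
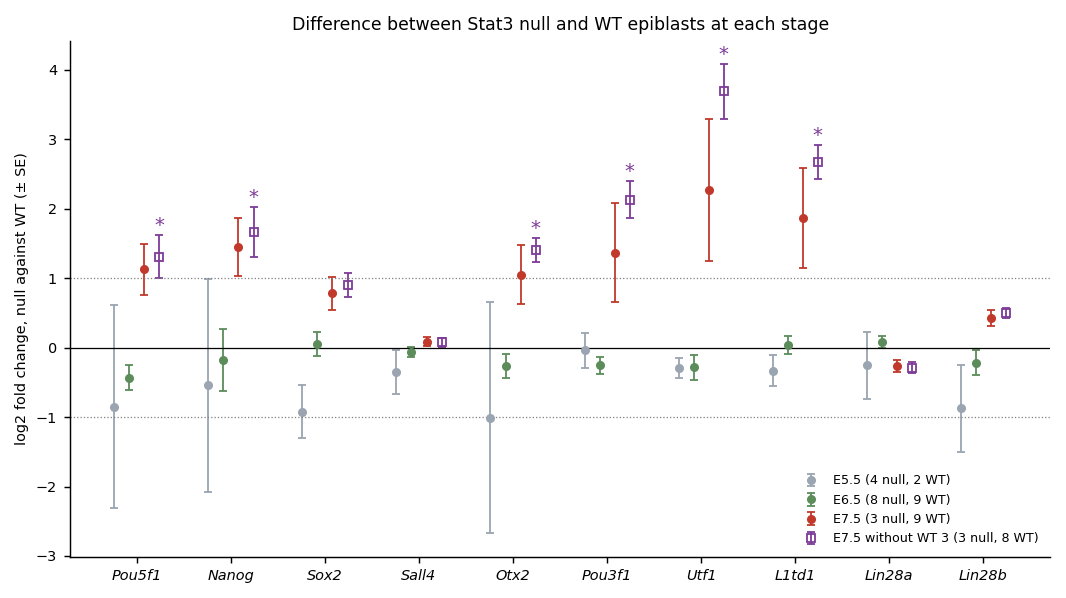
Log2 fold change of null against WT for each of the 10 genes at each stage, and at E7.5 also without WT 3, as points with bars of 1 SE, a solid line at 0, dotted lines at the fold required for a call and asterisks over called genes. All E5.5 points lie below 0, and the E7.5 points lie above 0 for all genes but *Lin28a*. There are 6 asterisks once WT 3, singled out by its values of these same genes, is left out, and none with all libraries included.

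From E6.5 to E7.5 no member was called in null epiblasts with edgeR, DESeq2 or limma-voom, against 0.103% of 19460 genes with edgeR, and 2 had an unadjusted p under 0.05 (8.09% of all genes). The log2 differences were -0.14 for *Utf1* (SE 0.28), -0.19 for *L1td1* (SE 0.13), -0.42 for *Pou3f1* (SE 0.22) and -0.10 for *Otx2* (SE 0.30), the last being -0.23 without E6.5 null 1. Other tissues moved with this step as well, with none of their markers called. All 10 visceral endoderm markers were lower at E7.5 (median -3.59), at sums of 42.5 to 256 against 118 to 6485 CPM, where in WT all 10 were higher at E7.5 (median 0.97). The 6 extraembryonic ectoderm markers tested were lower (median -3.12), at sums of 4.71 to 17.7 against 6.89 to 763 CPM. The 763 CPM was that of E6.5 null 1, and the other E6.5 null epiblasts had at most 39.8. Of 8 primitive streak and mesoderm markers 7 were higher (median 2.2). The part of these tissues in the members' differences was not tested. *Pou5f1* (0.59, SE 0.28, adjusted p = 0.629) and *Sall4* (0.41, SE 0.10, adjusted p = 0.173) had E7.5 null values wholly above the 8 at E6.5, as 4.15% of all genes did. When null epiblasts of E7.5 were set against WT epiblasts of E6.5, which are 1 day younger, no member was called by these tools either, against 0.162% of 19749 genes with edgeR, and 5 had an unadjusted p under 0.05 (8.87% of all genes). *Sox2* (0.78, SE 0.18) and *Sall4* (0.33, SE 0.077) were the most different at an adjusted p of 0.0961 each, and *Pou3f1* stood at -0.68 (SE 0.23, adjusted p = 0.339).

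Whether the null effect itself differed between E6.5 and E7.5 was tested as an interaction over all 35 epiblast libraries. The differences in log2 fold change were 2.55 for *Utf1* (SE 0.82, adjusted p = 0.144), 1.82 for *L1td1* (SE 0.58, adjusted p = 0.142) and 1.61 for *Pou3f1* (SE 0.56, adjusted p = 0.173), and edgeR called no member, against 0.245% of 24126 genes, with 5 members at an unadjusted p under 0.05 (13.4% of all genes). DESeq2 called 2 members (1.58% of all genes) and limma-voom 6 (6.19%). Without E7.5 WT 3, 3 members were called (1.37% of all genes), and without the 4 libraries that stand apart 5 were (3.81%), namely *Utf1* (3.95), *L1td1* (2.59), *Pou3f1* (2.42), *Pou5f1* (1.66) and *Otx2* (1.5).

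In EpiSC lines the 10 genes were near equal in null and WT. No member was called with edgeR or DESeq2, against 0.106% of 20736 genes with edgeR, and limma-voom was not run on these lines. An unadjusted p under 0.05 was seen in 3 members (9.09% of all genes), and the median log2 difference was 0.06. *Pou5f1* measured 486 and 531 CPM in the null lines against 435 and 504 CPM in the WT lines, *Nanog* 165 and 187 against 141 and 192 CPM, and *Otx2* 61.8 and 73.4 against 65.8 and 79.9 CPM, all overlapping. *Utf1* measured 298 and 291 CPM in null lines, above the WT values of 255 and 247 (0.23, SE 0.072, adjusted p = 0.376), and *Lin28b* 142 and 147 against 129 and 118 CPM (0.23, SE 0.077, adjusted p = 0.417). *Sox2* measured 128 and 136 against 144 and 167 CPM (-0.23, SE 0.092, adjusted p = 0.522), and *Pou3f1* 74.6 and 81.0 against 85.1 and 119 CPM (-0.39, SE 0.17, adjusted p = 0.600). With 2 lines a side, 18.4% of all genes had null values wholly above WT and 20.9% wholly below. EpiSC lines were prepared with another library kit and normalised on their own, so their levels stand beside those of epiblasts without a test. *Nanog* (141 to 192 CPM) and *Sox2* (128 to 167 CPM) lay above every epiblast, whose highest values were 108 CPM for each, while *Sall4* (377 to 448 CPM) lay below every E6.5 and E7.5 epiblast.

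The wider network was counted over lists. Of 20 partners and targets of OCT4, SOX2 and NANOG, 10 fell from E6.5 to E7.5 in WT epiblasts, against 3.09% of all genes called lower, with a median log2 difference of -1.25 against 0.01 over all genes, and the largest falls were those of *Gdf3*, a gene of the TGF-beta family, from a median of 4.15 CPM to none in 7 of 9 epiblasts, and of *Dppa2*, from 2.23 CPM to none in 8 of 9. Over the earlier step 1 was called higher, *Foxd3* (1.69), against 2.52% of all genes, and between null and WT epiblasts at E7.5 none of 17 tested was called, 15 being positive with a median of 0.88. Of 18 genes of the LIN28 and let-7 pathway, 3 rose from E6.5 to E7.5 in WT, against 5.74% of all genes called higher, the largest being *Ccnd2*, a cyclin gene, from a median of 11.9 to 190 CPM (3.74), and *Arid3a*, from 20.8 to 114 CPM (2.14). *Ccnd2* (3.0) and *Hmga2* (1.37), a let-7 target, rose already from E5.5 to E6.5, against the same 2.52%, and the genes that process microRNAs were not called. Of 13 POU, SOX, SALL and OTX relatives of the members, 3 rose and 1 fell from E6.5 to E7.5 in WT among 12 tested, against 5.74% and 3.09% of all genes, with *Sox1* (2.55), a marker of neural ectoderm, and *Sox21*, at 0 in 5 of 9 E6.5 epiblasts and at a median of 5.69 CPM at E7.5, rising and *Sall2* (-1.03) falling. None of these lists had a called gene between null and WT at E5.5, E6.5 or E7.5 or in EpiSC lines.

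Across the 20 WT epiblasts the levels of the primed genes ran in parallel, which describes shared stages as well as shared libraries. Pearson's r of log2 CPM was 0.981 for *Pou3f1* and *Utf1*, 0.979 for *Otx2* and *Pou3f1*, 0.970 for *L1td1* and *Utf1*, and 0.864 for *Nanog* and *Pou5f1*. Within the 9 E6.5 WT epiblasts r was 0.784 for *Pou3f1* and *Utf1* but 0.249 for *L1td1* and *Utf1*, and *Nanog* ran against *Utf1* (-0.880). Within the 8 E7.5 WT epiblasts other than WT 3, *Nanog* and *Pou5f1* had an r of 0.887 and *Lin28a* and *Pou5f1* of -0.918. The genes outside the set whose levels were most like a member's, among 8955 genes with a mean of at least 10 CPM over the 20 libraries, were *Zic5*, *Jade2* and *Slc35d3* for *Pou5f1* (0.940 to 0.953), *Anp32a*, *Cdca7* and *Tro* for *Sox2* (0.842 to 0.847), *Rbpms2*, *Slc7a3* and *Odc1* for *Otx2* (0.969 to 0.980) and *Ece1*, *Col2a1* and *Nr6a1* for *Lin28a* (0.937 to 0.956).

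The genes lie on GRCm38 at chr17:35506018-35510772 (*Pou5f1*), chr6:122707489-122714633 (*Nanog*), chr3:34650405-34652461 (*Sox2*), chr2:168748332-168767943 (*Sall4*), chr14:48657677-48673819 (*Otx2*), chr4:124656807-124660655 (*Pou3f1*), chr7:139943789-139945112 (*Utf1*), chr4:98726734-98738480 (*L1td1*), chr4:134003330-134018841 (*Lin28a*) and chr10:45376620-45486395 (*Lin28b*), and all are annotated as protein coding in GENCODE vM21. Counts may be shared with neighbouring genes, since a strand setting for counting was not given in the sources used here. Exons of genes on the other strand overlap 14.1% of the exon bases of *Pou5f1* (*Gm19553*), 9.50% of *Sall4* (*Gm14261*), 8.57% of *Pou3f1* (*Gm2164*), 5.86% of *Lin28a* (*Gm13061*) and 3.65% of *Otx2* (*Otx2os1*), and *Gm49154* on the same strand overlaps 3.98% of *Otx2*. No member had a copy of at least 95% identity over most of its transcript, and the only matches of such identity to another gene were the overlapping *Gm2164* and *Gm14261* and *Nanog-ps1*, at 97.55% identity to *Nanog* over 245 bases.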

How the data were processed

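RNA was sequenced from 35 single epiblasts and 4 EpiSC lines, with a different library kit for each kind. Per the labels, the authors used Trim Galore, HISAT2 and StringTie with GRCm38, and deposited raw gene counts in 1 table for each kind. The annotation release and the strand setting are not given in the sources used here. Counts were tested in edgeR 4.0.16 (TMM, robust quasi-likelihood fit, groups of the comparison only, except the interaction) in R 4.3.3, two-sided, with Benjamini-Hochberg adjustment over all genes that passed filterByExpr (minimum count 10, total 15). The test was tried on simulated data, in which no library was made to stand apart from its group. That trial therefore says nothing about calls that turn on 1 library. Replicates are separate embryos or lines. The members and gene lists were chosen with earlier results of these data known. All members were named, then the 2 called genes of each list with the largest change each way, and the 3 genes most correlated with *Pou5f1*, *Sox2*, *Otx2* and *Lin28a* (log2 CPM, prior count 2). Some markers of other tissues were also named, called or not, to describe their sums, and were not picked by this rule. Alternatives were DESeq2 1.42.0, limma 3.58.1 (voom, epiblasts only), other filters and scalings, all 35 epiblasts in 1 fit, the replicate number as a block, only the deeper or shallower E6.5 libraries and each library left out. Leaving out the 4 libraries that stand apart was added after seeing the data. Sequences came from RefSeq tables, exons and 3′ UTRs from GENCODE vM21, and copies were sought with blastn 2.17.0.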

Additional observations from a re-analysis of the deposited data

Results flagged for a closer look

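Each gene was examined for a single epiblast far from the others of its group, in 40 sets of 4 to 9 epiblasts, by Dixon's test at the 95% level, of which chance gives about 1 in 20. The test singled out 13 values, and 7 of them belonged to E7.5 WT 3. In that epiblast *Nanog* stood at 32.0 CPM against 5.77 to 18.5 in the other 8, *Sox2* at 83.3 against 33.5 to 54.0, *Otx2* at 186 against 44.1 to 73.8, *Pou3f1* at 193 against 17.4 to 37.9, *Utf1* at 235 against 6.69 to 25.9, *L1td1* at 727 against 56.7 to 150 and *Lin28b* at 156 against 96.3 to 114.

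E6.5 WT 3, the E6.5 WT epiblast with the highest visceral endoderm sum, was low in *Pou5f1* (419 CPM against 554 to 686 in the other 8) and in *Lin28b* (70.9 against 115 to 152). E6.5 null 2 was high in *Nanog* (108 CPM against 7.62 to 34.8 in the other 7) and low in *Pou3f1* (104 against 148 to 182). It and E6.5 null 3 had the fewest genes with at least 10 counts of the 35 epiblasts, 14250 and 13954. E6.5 null 6 was high in *L1td1* (866 CPM against 551 to 690). The library labelled E5.5 null 1 was low in *Sall4* (205 CPM against 438 to 465 in the other 3).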

How the results depend on the processing

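The count of members called stayed within 1.5 times of the reported count in 82 combinations of comparison and alternative that leave out no single library, and moved further in 6. These were null against WT at E7.5 (0 members, 3 with DESeq2, 6 with limma-voom), E6.5 against E5.5 WT (3, and 1 with all 35 epiblasts in 1 fit) and the interaction (0, 2 with DESeq2, 6 with limma-voom, 5 without the 4 libraries that stand apart). Leaving out 1 library at a time gave 0 to 6 members at E7.5 (6 without WT 3), 1 to 4 for E6.5 against E5.5 WT (1 without E5.5 WT 1) and 0 to 3 for the interaction (3 without E7.5 WT 3). The cause was not tested. Group size limits the comparisons that rest on the 2 WT epiblasts of E5.5, the 3 null epiblasts of E7.5 or 2 EpiSC lines a side.

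The correlations of deviations of same-numbered epiblasts were -0.189 to 0.202. In no comparison with 3 or more pairs did each pair exceed 0.1, so the numbers were not taken to pair samples. Between null and WT at E6.5, however, all 8 correlations were positive (0.0163 to 0.184) and 4 exceeded 0.1. The same-numbered WT epiblast was the best match for 5 of these 8 null epiblasts, for 2 of 2 at E5.5 and for 0 of 3 at E7.5. E6.5 null 1 to 3 had at least 43606300 counts and WT 1 to 3 at least 63991100, while the other E6.5 libraries had at most 36540200. Whether the numbers stand for a shared batch was not tested. With the replicate number as a block, 2 members were called from E5.5 to E6.5 WT, 6 from E6.5 to E7.5 WT and 0 in the other comparisons. For the EpiSC comparison alone, no paired analysis was possible because its lines share no replicate numbers.

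Over alternatives that leave out no single library, 910 single-gene values kept their direction and side of the threshold, 27 passed it, 5 lost it and 18 turned, and with 1 library left out 1158, 13, 2 and 27. All that turned were differences not called in the report. With the block, the log2 difference of *Pou3f1* at E5.5 became 0.046, of *Sox2* from E6.5 to E7.5 WT -0.0027, and of *Otx2* and *Utf1* from E6.5 to E7.5 null 0.40 and 0.29. With E6.5 libraries over 40000000 counts, null against WT was 1.01 for *Nanog*, -0.064 for *Sox2* and -0.094 for *L1td1*, and with the shallower ones 0.014 for *Utf1*. With the shallower ones *Sox2* from E6.5 to E7.5 WT was -0.068, *Lin28a* from E6.5 to E7.5 null -0.052, and E7.5 null against E6.5 WT -0.053 for *Nanog* and -0.0015 for *Lin28a*. *Sox2* from E6.5 to E7.5 WT was -0.15 with limma-voom and -0.14 without the libraries that stand apart, and *Lin28a* from E6.5 to E7.5 null -0.016 with DESeq2, -0.017 with RLE scaling, -0.0026 with a mean count of at least 50 and -0.045 with limma-voom.

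Leaving out 1 library turned null against WT at E5.5 for *Nanog* (-1.07 to 0.18), *Pou3f1* (-0.22 to 0.076) and *Lin28a* (-0.45 to 0.024), at E6.5 for *Sox2* (-0.036 to 0.15) and *L1td1* (-0.045 to 0.10), and in EpiSC lines for *Nanog* (-0.12 to 0.32), *Otx2* (-0.24 to 0.040), *L1td1* (-0.20 to 0.090) and *Lin28a* (-0.081 to 0.17). It also turned *Sox2* from E6.5 to E7.5 WT (-0.10 to 0.084), *Otx2* (-0.24 to 0.13), *Utf1* (-0.26 to 0.040) and *Lin28a* (-0.054 to 0.035) from E6.5 to E7.5 null, and *Nanog* in E7.5 null against E6.5 WT (-0.11 to 0.55).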

Other observations

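The null epiblasts at E7.5 varied among themselves. Null 3 was the lowest of the 3 in *Otx2* (93.0 CPM), *Pou3f1* (64.4), *Utf1* (137) and *L1td1* (504), and also in *Pou5f1*, *Nanog* and *Sox2*, and the highest in *Sall4* (880) and *Lin28a* (700). It had the highest sum of primitive streak and mesoderm markers of the 3, at 797 CPM against 446 and 611.

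*Foxd3*, a forkhead gene of the pluripotent epiblast, measured 14.3 and 25.3 CPM at E5.5, 28.4 to 78.9 CPM (median 66.2) at E6.5 and 0 to 74.9 CPM (median 0.113) at E7.5 in WT epiblasts, with no count in 2 of the 9. The 3 E7.5 null epiblasts had 27.8 to 61.3 CPM (median 58.0). *Ccnd2* measured 1.48 and 1.83, 5.17 to 19.9 and 20.8 to 267 CPM at the 3 stages in WT, and 41.9 to 103 CPM in E7.5 null epiblasts.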
